A study of Rattus norvegicus with 8 samples.

Results

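The genes described here are 5 cytokine genes, *Tnf*, *Il6*, *Il23a*, *Il10* and *Tgfb1*, among the 14217 genes with an annotated probe set on the array. They were chosen by symbol: every probe set annotated to exactly 1 of these genes was taken, which gave 6 of 31042 probe sets, with a pair of probe sets for *Tnf* and 1 for each other gene. The transcripts were those of PBMCs, the mononuclear cells of peripheral blood (mostly lymphocytes, with monocytes), from 2 healthy male Brown Norway rats of about 180 days, called BN1 and BN2, which served as reporter cells. Wells of 500000 cells received 20% plasma for 6 h, and each donor's cells met each of 4 plasmas, on 8 arrays in all. The 5% IH plasma was a pool from 5 male Sprague-Dawley rats that had been given intermittent hypoxia (IH) to 5% oxygen for 1 h a day from postnatal day 2 to 6. The 10% IH plasma was a pool from 3 such rats given IH to 10% oxygen on the same days, and the control plasma was a pool from 8 rats kept in normoxia, at 21% oxygen. All of this plasma was drawn after an overnight fast in adulthood (PD114, the postnatal day), long after the exposures. The autologous plasma came from the Brown Norway rats, and the labels disagree on its donor: titles give each donor its own plasma, while other fields of the labels name BN2 plasma for both arrays or BN1 plasma for the BN2 array. Every Sprague-Dawley plasma is 1 pool tested on cells of 2 animals, so no error or p-value given here measures the spread between plasma donors.

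Cytokines are secreted proteins by which immune cells signal to each other. TNF and IL-6 are released by monocytes and macrophages within hours of a stimulus such as bacterial lipopolysaccharide. IL-23, a dimer whose own subunit is encoded by *Il23a* and whose other subunit, *Il12b*, it shares with IL-12, sustains T helper cells that make IL-17. IL-10 and TGF-beta restrain such responses: IL-10 signals through STAT3 and lowers cytokine production by macrophages, and TGF-beta, encoded by *Tgfb1*, signals through SMAD proteins and is released in a latent form that must be activated. Transcription of the first genes is driven by NF-kB, AP-1, C/EBP and CREB family proteins on short promoter elements.

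Promoters of 4 of the 5 genes were found in the RefSeq table (build GRCr8), each running from 250 bases before to 50 bases after the start of the gene, and *Il10* was not matched. The 3 below are printed because they show how differently the elements of these cytokine promoters are laid out. Capitals mark matches, on either strand, to the letters searched: GGGANNTTC (the first letters of an NF-kB site), TGANTCA (AP-1), TGACGTCA (a cyclic AMP response element, CRE), TTGCNNAA (C/EBP), GAGGAA (the core bound by PU.1) and TATAAA, known as the TATA box. They are written 5′ to 3′ on the gene's own strand. *Tnf* lies at chr20:3626435-3626734 on the plus strand, *Il23a* at chr7:1308385-1308684 on the minus strand and *Il6* at chr4:5894526-5894825 on the minus strand.
Tnf: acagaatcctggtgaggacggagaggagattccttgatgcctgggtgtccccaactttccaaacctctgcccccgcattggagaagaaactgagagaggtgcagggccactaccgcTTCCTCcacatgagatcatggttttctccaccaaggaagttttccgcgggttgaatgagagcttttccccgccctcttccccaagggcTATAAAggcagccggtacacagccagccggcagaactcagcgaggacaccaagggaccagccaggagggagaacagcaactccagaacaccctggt
Il23a: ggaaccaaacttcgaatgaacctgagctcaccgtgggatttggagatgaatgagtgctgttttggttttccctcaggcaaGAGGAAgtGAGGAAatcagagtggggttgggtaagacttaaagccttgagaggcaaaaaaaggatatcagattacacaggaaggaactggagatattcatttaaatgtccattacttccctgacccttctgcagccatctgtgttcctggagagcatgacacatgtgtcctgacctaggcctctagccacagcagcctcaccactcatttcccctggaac
Il6: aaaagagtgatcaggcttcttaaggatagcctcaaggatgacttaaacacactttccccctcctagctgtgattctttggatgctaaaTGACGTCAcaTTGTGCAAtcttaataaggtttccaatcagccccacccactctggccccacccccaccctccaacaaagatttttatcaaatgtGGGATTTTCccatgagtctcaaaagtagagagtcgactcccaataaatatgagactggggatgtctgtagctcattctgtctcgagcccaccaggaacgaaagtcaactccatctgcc

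Positions are counted from the gene start, with -1 the base before it. *Il6* held an NF-kB match from -68 to -60, a CRE from -162 to -155 and a C/EBP match from -152 to -145 on the opposite strand. *Tnf* held a TATA box from -46 to -41 and a PU.1 core from -134 to -129 on the opposite strand, and *Il23a* held PU.1 cores from -170 to -165 and from -162 to -157. None of the letters were found in the *Tgfb1* promoter (chr1:90324062-90324361, plus strand). The letters differ in how common they are. Of 33469 promoters of the same length, 27.6% held the PU.1 core, 14.2% the TATA box and 10.6% the C/EBP letters. The AP-1 letters were in 7.33%, the NF-kB letters in 4.05% and the CRE in 1.83%. A match is a description of the window and was not tested as a binding site.

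**Figure D1:**
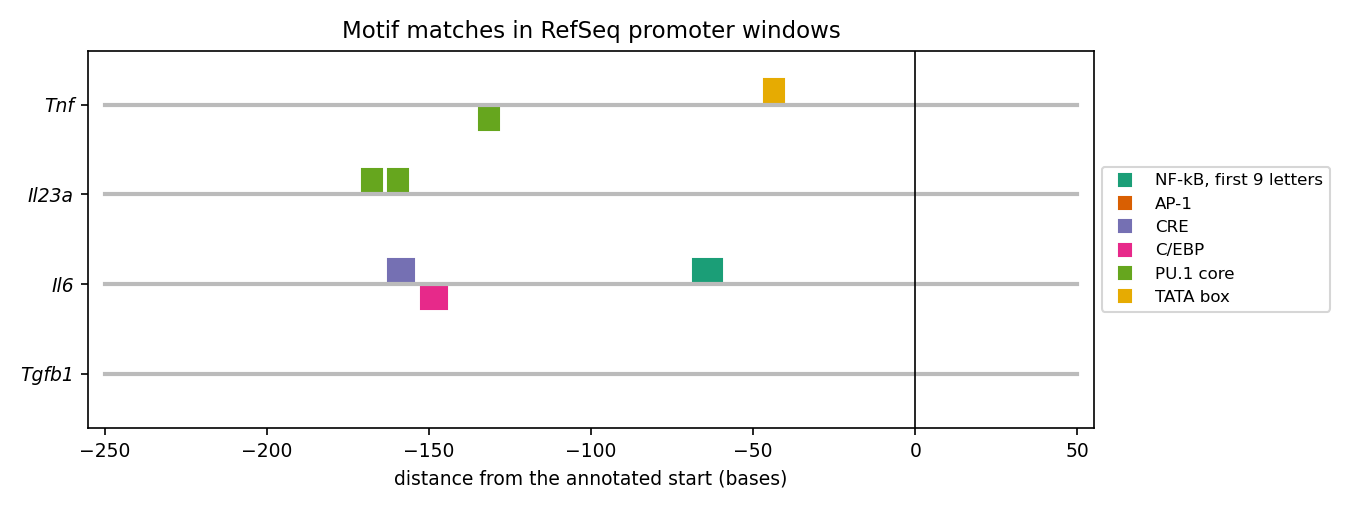
Motif matches in the promoters of *Tnf*, *Il23a*, *Il6* and *Tgfb1*, by distance from the gene start in bases; boxes are matches, coloured by motif. *Il6* carries NF-kB, CRE and C/EBP matches, *Tnf* and *Il23a* carry PU.1 cores, and *Tgfb1* carries none of the 6 motifs.

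Across the whole array, values ran from 1.66 to 14.3 log2 units and array medians from 5.53 to 5.56. Arrays with Sprague-Dawley plasma correlated with each other at 0.995 to 0.998 and with autologous arrays at 0.990 to 0.993. Among the former, the pairs with the 10% IH array of BN1 were the lowest, at 0.9952 to 0.9958. The other Sprague-Dawley pairs were at 0.9967 or higher. A probe set was called by the study's criterion where its Rank Product p, a permutation p for ranks of the ratios between arrays, was under 0.05 and its mean ratio passed 1.2-fold in either direction (a log2 ratio of 0.263034; the methods print this threshold rounded to 3 decimals), and separately by limma where the Benjamini-Hochberg adjusted p was under 0.05. In all 6 comparisons every probe set past the fold threshold also had a Rank Product p under 0.05, as that p was computed here, so the fold decided these calls. The study's own Rank Product package was not run, so whether its p would have removed some of these probe sets was not tested. For 5% IH against control, 964 probe sets were called at the rounded threshold, as many as the paper counts. For 10% IH against control, the paper counts fewer genes than the probe sets called here. The Rank Product p sets the ranks of a probe set against permuted ranks and measures no spread between donors. In the main limma fit, errors and p-values rest on the spread between the 2 arrays of a plasma, pooled over the 4 plasmas. Those 2 arrays differ in reporter donor and, for autologous plasma by the titles, also in plasma. A comparison of 2 arrays with 2 has no exact permutation p below 0.333. The share of probe sets whose groups do not overlap was not counted, so an absence of overlap is description only. PBMCs are a mixture of cell types, so fewer cells of a type and less RNA per cell cannot be told apart in any value given here.

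The first question was whether plasma of adult rats exposed to IH as neonates changed cytokine transcripts in the reporter cells relative to normoxic control plasma. With 5% IH plasma, 3 of the 5 genes, *Tnf*, *Il23a* and *Il10*, were higher by the criterion and none was lower. Over the array, 1.58% of probe sets were called higher and 1.52% lower. limma called 0% of probe sets in this comparison, with 790 at an unadjusted p under 0.05, and the adjusted p was 1 for each of the 5 genes. With 10% IH plasma 1 of the 5 genes, *Il6*, was called, as lower, where 3.58% of probe sets over the array were called higher and 3.37% lower. limma called 0% there too, with 1612 probe sets at an unadjusted p under 0.05 and adjusted p-values of 0.92 to 0.986 for the 6 cytokine probe sets. Of 11 measured monocyte and macrophage markers, 4 were higher by the criterion with 5% IH plasma and none with 10% IH plasma.

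Among the pro-inflammatory genes, the brighter *Tnf* probe set (1391384_at) read 6.52 in BN1 and 6.37 in BN2 cells with 5% IH plasma, 5.82 and 6.12 with 10% IH plasma, and 6.04 and 5.98 with control plasma, all in log2 expression units. Both 5% IH values lay above both control values, and the 10% IH values lay on either side of them. The log2 ratio of 5% IH to control was 0.44 ± 0.131 (SE from limma, n = 2 arrays a group), or 1.35-fold, with 0.48 in BN1 and 0.39 in BN2. The ratio of 10% IH to control was -0.04, with -0.22 in BN1 and 0.14 in BN2, and did not meet the criterion.

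The other *Tnf* probe set (1387691_at) gave another picture. It read 5.17 and 5.03 with 5% IH plasma, 5.14 and 5.20 with 10% IH plasma, and 4.83 and 5.06 with control plasma, and the 5% IH and control values overlapped. Its log2 ratios to control, 0.15 ± 0.107 with 5% IH and 0.23 ± 0.107 with 10% IH, did not meet the criterion. Without the control array of BN2 they were 0.27 and 0.34, and both were called. Over the 8 arrays both probe sets correlated at r = 0.12, a description over arrays that share 2 donors. The annotation pairs the dimmer probe set with a *Tnf* reference transcript and lists no accession for the brighter one, so whether the brighter one reads *Tnf* is not settled, and the *Tnf* calls in the gene counts rest on it. Where both were averaged, the log2 ratio of 5% IH to control was 0.29 and still met the criterion.

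*Il23a*, the IL-23 subunit gene, read 5.74 and 5.88 with 5% IH plasma, 5.69 and 5.33 with 10% IH plasma, and 5.42 and 5.52 with control plasma. The 5% IH values were above the control values in both donors. Its log2 ratio was 0.34 ± 0.133 with 5% IH (1.26-fold), at 0.32 in BN1 and 0.36 in BN2. With 10% IH it was 0.04, and the donors differed in sign, with 0.28 in BN1 and -0.20 in BN2.

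*Il6* read 3.05 and 3.43 with 5% IH plasma, 2.87 and 3.09 with 10% IH plasma, and 3.55 and 3.00 with control plasma. These are low values for the array, with 10.9% of probe sets below the gene's mean. All 3 groups overlapped, and the highest value was that of BN1 cells with control plasma. With 5% IH the log2 ratio was -0.03 ± 0.19, made of -0.50 in BN1 and 0.43 in BN2. With 10% IH it was -0.30 ± 0.19, with -0.68 in BN1 and 0.08 in BN2, and *Il6* met the criterion as lower although only 1 donor fell below its control. Without the control array of BN1 the 10% IH ratio was -0.02, and without the 10% IH array of BN1 it was -0.19, and neither met the criterion. Without the control array of BN2 the 5% IH ratio was -0.31 and was called lower.

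Of the anti-inflammatory genes, *Il10* read 4.32 and 4.55 with 5% IH plasma, 4.13 and 4.09 with 10% IH plasma, and 3.98 and 3.96 with control plasma. Each 5% IH value was above each 10% IH and control value. The 10% IH values were above the control values too, but by less than the standard error given next. The log2 ratio to control was 0.46 ± 0.144 with 5% IH (1.38-fold), at 0.34 in BN1 and 0.59 in BN2, and 0.14 ± 0.144 with 10% IH, at 0.14 and 0.13, which did not meet the criterion. Its level is low for the array too, with 26.9% of probe sets below its mean.

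*Tgfb1* read 5.95 and 5.80 with 5% IH plasma, 5.92 and 5.81 with 10% IH plasma, and 5.81 and 5.77 with control plasma. Its log2 ratio was 0.09 (95% interval by limma -0.27 to 0.45) with 5% IH and 0.08 (-0.28 to 0.44) with 10% IH, and neither met the criterion. With 5% IH plasma the called genes thus came from both sides, *Tnf* and *Il23a* among the pro-inflammatory and *Il10* among the anti-inflammatory ones.

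**Figure D2:**
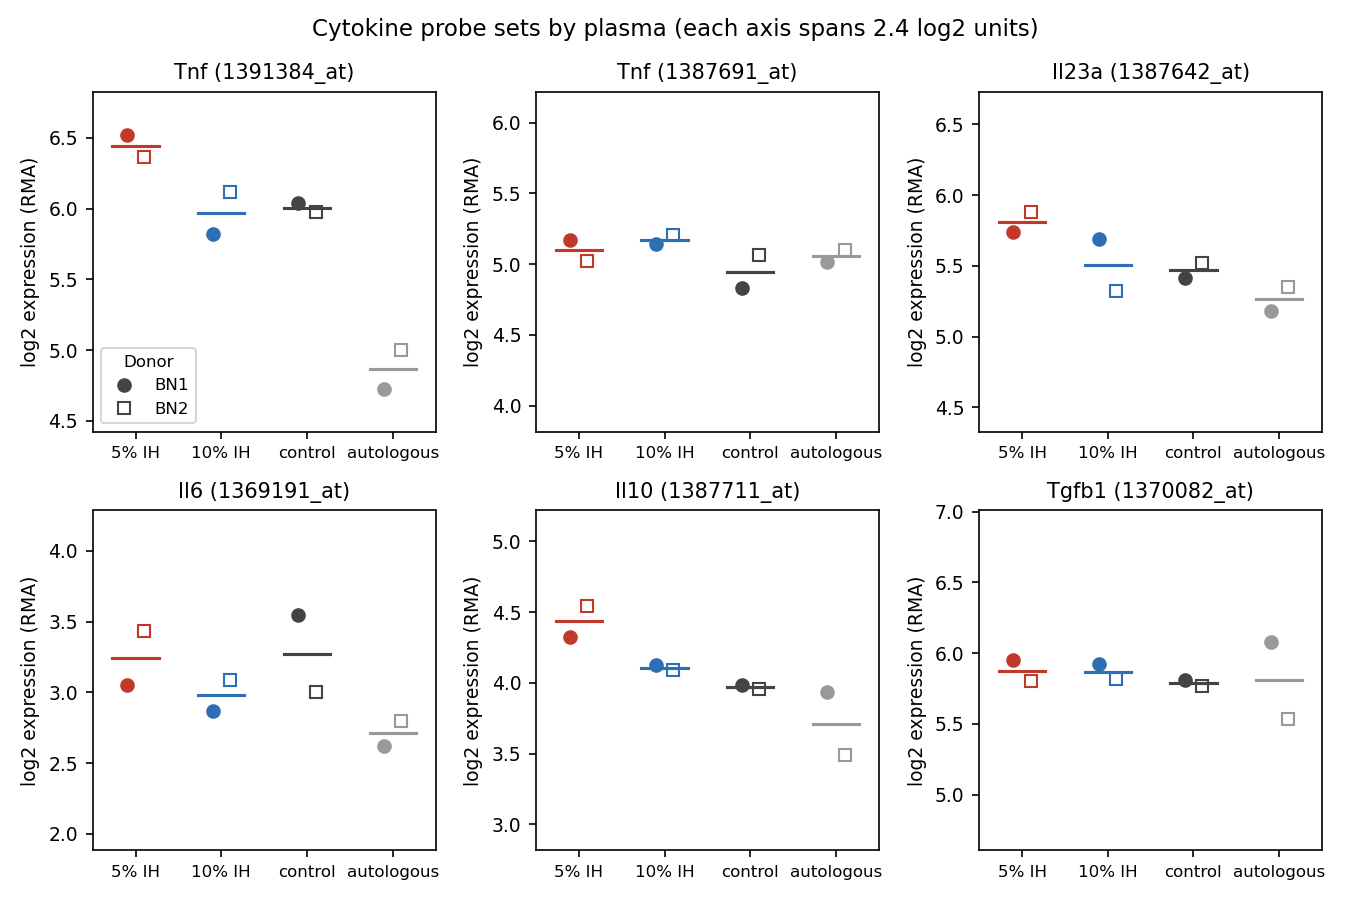
Log2 expression of the 6 cytokine probe sets in each array, by plasma (5% IH, 10% IH, control, autologous); circles are BN1 cells, squares are BN2 cells and bars are the means of 2. *Il10* values with 5% IH plasma, 4.32 and 4.55, are above every other *Il10* value, and the *Tnf* probe set 1391384_at is lowest with autologous plasma.

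**Figure D3:**
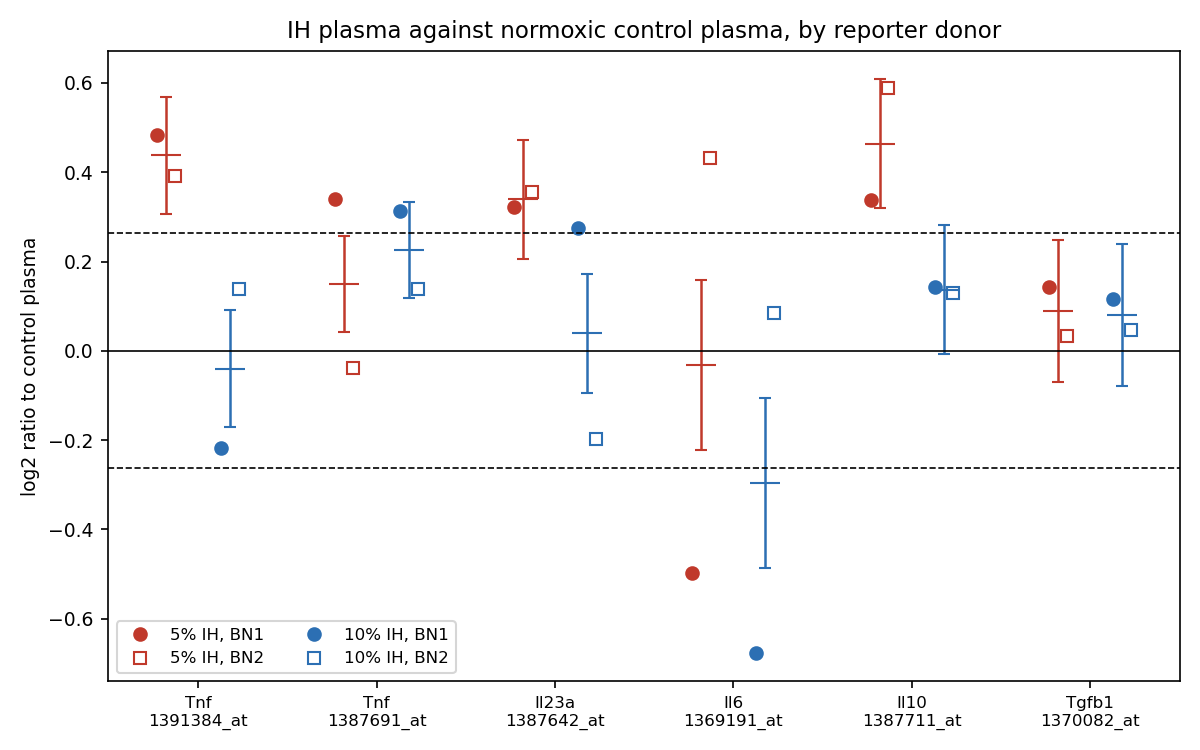
Log2 ratios of 5% IH and 10% IH plasma to control plasma by probe set; points are the donors BN1 and BN2, bars are the mean with its limma standard error, and dashed lines mark 1.2-fold in either direction. Both donors lie above 1.2-fold for *Tnf* 1391384_at, *Il23a* and *Il10* with 5% IH plasma, closer together for the first pair of genes than for *Il10* (0.34 and 0.59), and on opposite sides of 0 for *Il6* with both IH plasmas.

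The 5% and 10% IH plasmas were then set against each other. By the criterion at exactly 1.2-fold *Tnf*, *Il23a* and *Il10* were higher with 5% IH plasma, which is 3 of 5 genes, and 4 with *Il6* at the rounded threshold, where 3.28% of probe sets over the array were called higher, and limma called 0% (1452 at an unadjusted p under 0.05; adjusted p of 0.981 to 0.999 for the 6 probe sets). In the same comparison 3 of 11 measured monocyte and macrophage markers and 2 of 7 B cell markers were higher with 5% IH plasma, and 1 of 7 platelet markers was lower. Over the array, 949 of 31042 probe sets were called lower there. The *Tnf* log2 ratio (1391384_at) was 0.48 ± 0.131 (1.39-fold; 0.70 in BN1, 0.25 in BN2), with no overlap between groups. The other *Tnf* probe set had -0.08, and the mean of both, at 0.20, did not meet the criterion. *Il10* had 0.33 ± 0.144 (0.19 in BN1, 0.46 in BN2), which was 0.21 and not called without the 5% IH array of BN2. *Il23a* had 0.30 ± 0.133, with 0.05 in BN1 and 0.55 in BN2, and was not called without the 5% IH array of BN2 (0.23) or the 10% IH array of BN2 (0.12). *Il6* stood at the threshold itself: its log2 ratio of 0.263020 was short of 0.263034 and was not called at exactly 1.2-fold, but it passed the rounded threshold of 0.263 and was then called higher. It was also called at 0.45 without the 5% IH array of BN1 and at 0.37 without the 10% IH array of BN2. *Tgfb1* had 0.01. This comparison, like those above, shares its arrays with the others: the 5% IH arrays also enter the 5% IH ratios to control.

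Autologous plasma served as a baseline from the reporter strain. Against it, limma called 609 probe sets (1.96%) with 5% IH plasma, 389 (1.25%) with 10% IH plasma and 551 (1.78%) with control plasma. The criterion called 5.58% of probe sets higher with 5% IH, 5.55% with 10% IH and 5.5% with control plasma. In the same 3 comparisons 8 of 11 monocyte and macrophage markers were higher. The autologous arrays are common to all 3 comparisons. *Tnf* (1391384_at) read 4.73 in BN1 and 5.00 in BN2 with autologous plasma, below every array with Sprague-Dawley plasma. Its log2 ratio to autologous was 1.58 ± 0.131 with 5% IH (2.99-fold), 1.10 ± 0.131 with 10% IH (2.15-fold) and 1.14 ± 0.131 with control plasma (2.21-fold). limma called it in each case, with Benjamini-Hochberg adjusted p = 0.000252 for 5% IH, 0.00288 for 10% IH and 0.00216 for control. The other *Tnf* probe set, at 5.02 and 5.10 with autologous plasma, had 0.04, 0.11 and -0.11 for 5% IH, 10% IH and control and was not called. With both averaged, the *Tnf* log2 ratios were 0.81, 0.61 and 0.52 for 5% IH, 10% IH and control.

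*Il10* read 3.93 and 3.49 with autologous plasma. Its log2 ratio to autologous was 0.72 ± 0.144 with 5% IH (1.65-fold; 0.39 in BN1, 1.06 in BN2), 0.40 with 10% IH (0.19 and 0.60) and 0.26 with control plasma (0.05 and 0.47). The criterion called it higher with both IH plasmas and not with control plasma. limma's adjusted p was 0.0421 for 5% IH, 0.407 for 10% IH, and the first was 0.072 with the reporter donor as a block. The limma call was also lost with only the compared groups in the fit (adjusted p = 0.171), without the 5% IH array of BN1 (adjusted p = 0.0991), without that of BN2 (0.279) and without the autologous array of BN2 (0.146), and over all alternatives the adjusted p ran from 0.00913 to 0.279. By the criterion, the *Il10* ratio with 10% IH was 0.17 and not called without the autologous array of BN2, and that with control plasma was called at 0.48 without the autologous array of BN1 and at 0.27 without the control array of BN2.

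*Il6* read 2.62 and 2.80 with autologous plasma, below all 6 values with Sprague-Dawley plasma. Its log2 ratio was 0.53 ± 0.19 with 5% IH (0.43 in BN1, 0.63 in BN2), 0.27 with 10% IH (0.25 and 0.29) and 0.56 with control plasma (0.92 and 0.20). The criterion called all 3 higher, while limma's adjusted p was 0.338 for 5% IH, 0.731 for 10% IH and 0.31 for control. The 10% IH ratio fell short of the threshold at 0.16 without the 10% IH array of BN2 and at 0.18 without the autologous array of BN1.

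*Il23a* read 5.18 and 5.35 with autologous plasma. It was called higher by the criterion with 5% IH alone, at a log2 ratio of 0.55 ± 0.133 (0.56 in BN1, 0.53 in BN2; limma adjusted p = 0.103). With 10% IH it had 0.25 and with control plasma 0.21, neither past the threshold. Without the autologous array of BN2 they were 0.33 and 0.29 and were called, as was 10% IH without its BN2 array, at 0.43. *Tgfb1*, at 6.08 and 5.54, spread more between the autologous arrays than between the arrays of any other plasma, and its ratios of 0.07, 0.06 and -0.02 for 5% IH, 10% IH and control were not called. Without the autologous array of BN1 the *Tgfb1* ratios with 5% and 10% IH were 0.34 and 0.33 and called higher, and without that of BN2 the control ratio was -0.29 and called lower. By the criterion, 4 of the 5 genes were thus higher than autologous with 5% IH plasma, 3 with 10% IH plasma and 2 with control plasma.

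Markers of the blood cell types were read beside these values. Of 12 monocyte and macrophage markers, 11 were measured. Their mean level per array was 7.29 to 7.48 with 5% IH plasma, 7.21 to 7.27 with 10% IH, 7.15 to 7.33 with control and 5.38 to 5.71 with autologous plasma. With 5% IH, 4 of the 11 were higher than control by the criterion, where 1.58% of all probe sets were. With 10% IH none was, where 3.58% of all probe sets were. Against autologous plasma 8 of the 11 were higher with each Sprague-Dawley plasma. Of all probe sets, 5.58% were higher than autologous with 5% IH, 5.55% with 10% IH and 5.5% with control plasma. *Cd14*, the lipopolysaccharide co-receptor of monocytes, was at 9.90 with control plasma and 4.63 with autologous plasma (log2 means of 2), and *Adgre1*, a macrophage surface receptor, had a log2 ratio of 0.54 for 5% IH to control. Over the 11 markers the median log2 ratio was 1.05 for control to autologous plasma and 0.063 for 5% IH to control, where 7 were not called. The part that monocyte number or state has in the cytokine values was not tested.

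The 12 T cell markers were all measured and none was called in any of the 6 comparisons, with mean levels of 8.78 to 8.92 with 5% IH, 8.76 to 8.96 with 10% IH, 8.81 to 8.90 with control and 8.77 to 8.92 with autologous plasma. Of 10 B cell markers 7 were measured. Of these, 3 were lower with 10% IH than with control plasma, where 3.37% of all probe sets were. The list had mean levels of 8.17 to 8.37 with 10% IH and 8.46 to 8.57 with control plasma. The 9 NK cell markers had no call between IH and control plasmas, and neither did the 7 measured neutrophil markers or the 7 measured platelet markers. The red cell markers, 4 measured of 7, had 1 call, higher with 10% IH than with control plasma, where 3.58% of all probe sets were. Against autologous plasma, 3 of the 7 B cell markers were higher with each Sprague-Dawley plasma, with mean levels of 8.46 to 8.53 with 5% IH, 8.17 to 8.37 with 10% IH, 8.46 to 8.57 with control and 7.91 to 8.21 with autologous plasma. Of the 7 neutrophil markers 3 were higher than autologous with 5% IH, 2 with 10% IH and 3 with control plasma, and of the 9 NK cell markers 3 were lower with 5% IH, 2 with 10% IH and 2 with control plasma. With 5% IH plasma 2 of the 7 platelet markers were lower than autologous, and 1 of the 4 red cell markers was lower with each Sprague-Dawley plasma. Over the array, 5.58% of probe sets were higher than autologous with 5% IH, 5.55% with 10% IH and 5.5% with control plasma. Those lower than autologous were 1698 of 31042 with 5% IH, 1698 with 10% IH and 1598 with control plasma. The part these cell types have in the cytokine values was not tested. The neutrophil list was at 4.51 to 4.80 with 10% IH and 4.60 to 4.79 with control plasma.

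**Figure D4:**
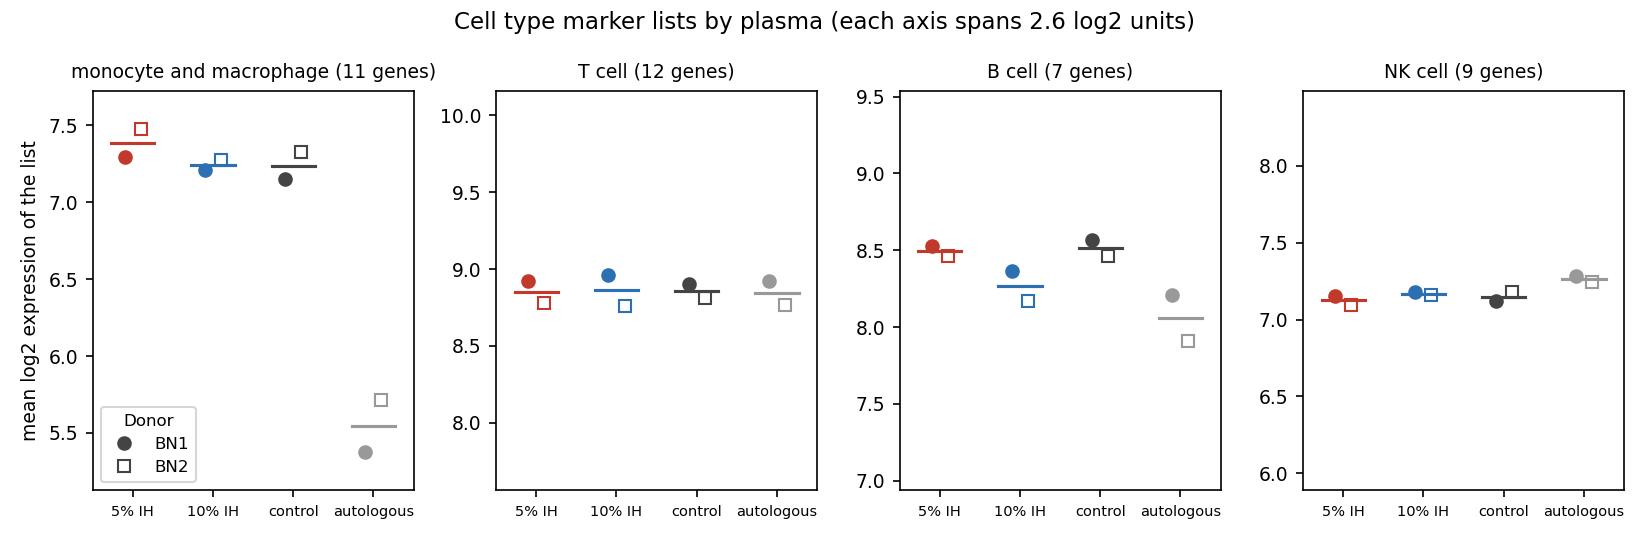
Mean log2 expression of monocyte and macrophage, T cell, B cell and NK cell marker lists per array, by plasma; circles are BN1, squares BN2 and bars the means of 2. The monocyte list lies at 5.38 to 5.71 with autologous plasma and at 7.15 or more with the others, while the T cell list overlaps between all plasmas.

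Genes of the cytokines' receptors, signalling and transcription were described in 6 lists, with 86 of 102 genes measured. With 5% IH plasma 7 of the 86 were higher than control by the criterion (8.14%) and none was lower, beside 1.58% and 1.52% of all probe sets, and their median log2 ratio was 0.034, beside -0.00127 over all probe sets. With 10% IH plasma 7 were higher (8.14%, beside 3.58% of all probe sets) and 3 lower (3.49%, beside 3.37%), with a median of 0.0166, beside -0.000553. The share called lower was thus near that of the array. limma called none of them against control.

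In the TNF list, with 16 of 16 genes measured, *Tnfaip2*, a gene induced by TNF, was higher with 5% IH plasma at a log2 ratio of 0.28 ± 0.178. With 10% IH plasma *Lta*, which encodes lymphotoxin alpha, a TNF relative that binds the same receptors, was lower at -0.30 (-0.49 in BN1, -0.12 in BN2). The IL-12 and IL-23 list, with 9 of 16 measured, had *Ebi3*, a subunit of IL-27 and IL-35, at 0.36 ± 0.117 and *Il18*, an interferon-gamma inducing cytokine, at 0.31 ± 0.0956, both higher with 5% IH plasma in both donors, and no call with 10% IH. The IL-10 list, with 13 of 14 measured, had *Hmox1*, the haem-degrading enzyme, called with 5% IH (0.27 ± 0.236), and *Socs3* and *Il1rn*, the IL-1 receptor antagonist, called with 10% IH.

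In the IL-6 list, 5 of 13 measured genes (14 listed) were higher than control with 10% IH plasma, where 3.58% of all probe sets were, at a list median of 0.15, and none met the criterion with 5% IH plasma, at a median of 0.03. They were *Il6r*, the IL-6 receptor (0.33 ± 0.121, with 0.40 in BN1 and 0.25 in BN2), *Adam10*, a protease that sheds membrane receptors (0.42, with 0.78 and 0.06), *Pim1*, a kinase gene induced by STAT3 (0.44, with 0.79 and 0.09), and *Socs1* and *Socs3*, feedback inhibitors of cytokine receptors (0.38, with 0.50 and 0.26, and 0.41, with 0.65 and 0.17). In each the BN1 value was the larger, and the 10% IH array of BN1 was the one that correlated least with the other Sprague-Dawley arrays. In the direct comparison of 5% IH with 10% IH plasma, 3 of the 13 were lower with 5% IH, where 949 of 31042 probe sets were. *Il6* itself was called lower with 10% IH plasma, as above. Of 22 measured TGF-beta genes (26 listed), 1 was called against control, *Lrrc32*, which holds latent TGF-beta on the cell surface, lower with 10% IH at -0.31 (-0.20 in BN1, -0.41 in BN2).

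Among 17 measured transcription factors of cytokine promoters (20 listed), *Cebpd* (0.40 ± 0.121), *Cebpb* (0.29) and *Nfkbiz* (0.28 ± 0.0886), which encodes a nuclear partner of NF-kB, were higher with 5% IH plasma in both donors. *Cebpb* was higher with 10% IH too (0.33, with 0.52 in BN1 and 0.14 in BN2), and *Jun*, a subunit of AP-1, was lower with 10% IH at -0.32 (-0.43 and -0.21). Against autologous plasma, 30 of the 86 pathway genes were higher with 5% IH (34.9%), 29 with 10% IH (33.7%) and 27 with control plasma (31.4%), beside 5.58% of all probe sets with 5% IH, 5.55% with 10% IH and 5.5% with control. The monocyte marker levels given above differ in the same comparisons.

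**Figure D5:**
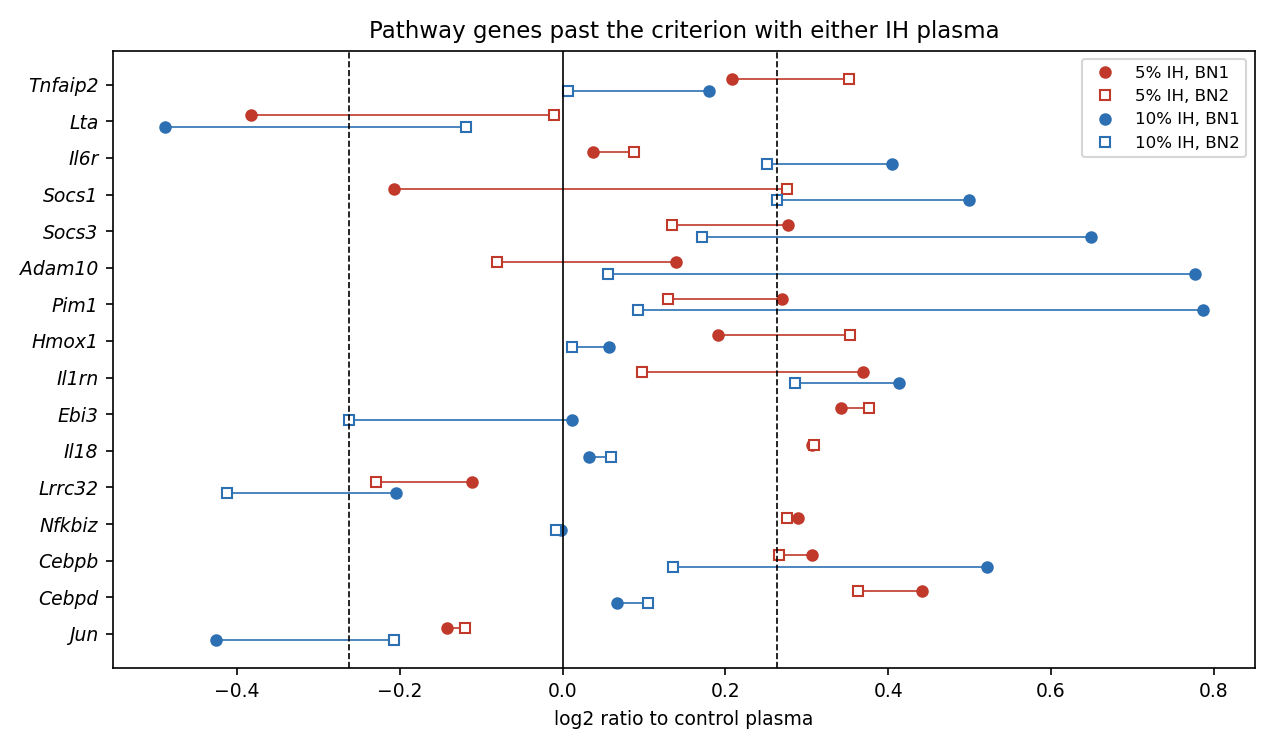
Log2 ratios to control plasma of the pathway genes called with either IH plasma, by donor; points are BN1 and BN2 with 5% IH and with 10% IH, and dashed lines mark 1.2-fold. *Ebi3*, *Il18* and *Nfkbiz* lie close between donors with 5% IH plasma, and *Adam10* and *Pim1* with 10% IH plasma differ between donors, at 0.78 and 0.79 in BN1 and 0.06 and 0.09 in BN2.

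The genes whose levels followed each cytokine most closely over the 8 arrays were listed from 9968 genes, as a description. The arrays share donors. The gap between autologous and Sprague-Dawley plasma weighs on r for genes that have it, such as *Tnf* (1391384_at). *Tgfb1* and the other *Tnf* probe set had no call against autologous plasma with all arrays in. The autologous values of *Tgfb1*, 6.08 and 5.54, were its highest and lowest. For *Tnf* (1391384_at) these were *Nfkbiz* (r = 0.988), *Rnf144b* (0.985) and *Cdc42ep4* (0.984), and for the other *Tnf* probe set *Sirt6* (0.899), *P4htm* (0.882) and *Tbx2* (0.871), with no gene in common. For *Il23a* they were *Tnfrsf1b*, a TNF receptor (0.926), *Dnaaf5* (0.911) and *Abcc4* (0.898). For *Il6* they were *Pepd* (0.939), *Usp1* (0.920) and *Eci3* (0.908), for *Il10* *Ttyh2* (0.955), *Myo1e* (0.955) and *Gramd1b* (0.947), and for *Tgfb1* *Tnfaip8l2* (0.979), *Mrpl52* (0.973) and *Acot7* (0.968). Among the cytokines, *Tnf* (1391384_at) had r = 0.74 with *Il23a*, 0.72 with *Il6*, 0.75 with *Il10* and 0.03 with *Tgfb1*. The other *Tnf* probe set had 0.15 with *Il23a*, -0.51 with *Il6*, 0.08 with *Il10* and 0.01 with *Tgfb1*.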

How the data were processed

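PBMCs of 2 reporter donors with 4 plasmas were hybridized to 8 single-colour Affymetrix rat arrays (2 for each plasma). For the deposited log2 values the authors used Expression Console with Robust Multichip Analysis (background correction, quantile normalization and a summary per probe set). Partek is named in the submitters' notes without a role. The table held 31042 probe sets without missing values, 20826 of them with 1 symbol, 436 with several and 9780 with none. The number of arrays limits the precision. *Tnf*, with a pair of probe sets, is represented by the brighter one where genes are counted, although its identity as *Tnf* is not settled.

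Ratios, the Rank Product (all 4 ratios between arrays of a comparison, 100 permutations, 1-sided p) and lists were computed in Python 3.11.15 (numpy 2.4.6, pandas 2.3.3), since the study's Rank Product package was not used here. limma 3.58.1 in R 4.3.3 was fitted over all 8 arrays and 4 groups with no donor term, and p-values were adjusted by Benjamini-Hochberg across the 31042 probe sets. Scripts were tested on simulated data. Replicate numbers are reporter donors, so they pair the arrays. Deviations from the group means correlated between arrays of 1 donor at 0.24 for 5% IH and control, 0.059 for 10% IH and control, 0.165 for 5% and 10% IH, -0.0833 for 5% IH and autologous, -0.171 for 10% IH and autologous, and -0.00387 for control and autologous.

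The members and gene lists were chosen with earlier results of these data known. Named genes were the members, the pathway genes called with an IH plasma against control (at most 5 a list) and the 3 genes closest to each member among genes at or over the 40th percentile of level. The cell type markers *Cd14* and *Adgre1* were named outside this rule. Alternatives were the false prediction share, a 2-sided p, limma's p, median centring, quantiles, a filter on dim probe sets, the mean of probe sets, the donor block, limma's trend with robust moderation, the 2 compared groups alone and each array left out. The fold threshold was the log2 of 1.2 unrounded. The methods print it rounded, as 0.263, and that value was run as an alternative added after seeing the data. Promoters came from RefSeq (GRCr8) and other genes' coordinates were not used.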

Additional observations from a re-analysis of the deposited data

Results flagged for a closer look

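*Il6* with 5% IH plasma against control plasma moved in opposite directions in the reporter donors, at -0.50 in BN1 and 0.43 in BN2 on the log2 scale, each past 1.2-fold. The difference between donors was not tested, since each donor has 1 array a plasma.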

How the results depend on the processing

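No called value of the 5 genes changed sign. Of 798 single-gene values recomputed under the alternatives, 759 kept their side of the threshold, 15 gained a call and 24 lost one, and 31 that were not called changed sign. The number of cytokine genes called was 3 for 5% IH against control (3 to 4 with 1 array left out). For 10% IH against control it was 1, and 0 with the estimated share of false predictions, with limma's p, or without the dimmest 40% of probe sets, a filter that removes *Il6* and *Il10* (0 to 1 with 1 array left out). For 5% against 10% IH it was 3, and 1 with the false prediction share or limma's p. Without the dimmest, or with the mean of probe sets, it was 2. It was 4 for 5% IH against autologous, and 2 without the dimmest. For 10% IH against autologous it was 3, and 2 with limma's p or median centring. It was 1 there with the false prediction share or without the dimmest. For control against autologous it was 2, and 1 without the dimmest. With 1 array left out, the genes past 1.2-fold against autologous changed, as given for each gene above.

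The criterion called 963 probe sets for 5% IH against control, 350 with the false prediction share, 562 with limma's p, 238 without the dimmest and 1939 to 2284 with 1 array left out. For 10% IH against control it called 2156, and in the same order 561, 1194, 1331 and 2776 to 4574. For 5% against 10% IH it called 1966, and 425, 1033, 1159 and 2732 to 4351. Against autologous, it called 3431 for 5% IH (1182 with the false prediction share, 4199 to 4787 with 1 array left out), 3420 for 10% IH (932; 3654 to 4733) and 3305 for control (1200; 4181 to 4767). limma's counts with 1 array left out were 0 for 5% IH against control, 0 to 46 for 10% IH against control and 0 to 57 for 5% against 10% IH (the highest of both without the 10% IH array of BN2), and against autologous 308 to 507 for 5% IH, 259 to 568 for 10% IH and 223 to 434 for control. With only the compared groups, limma called 1 for 10% IH against control and 239 for 10% IH against autologous.

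With the replicate block (donor), the limma call of *Il10* for 5% IH against autologous was lost, at an adjusted p of 0.072, and no other call of the 5 genes changed. That p ran from 0.00913 to 0.279 over the alternatives, while *Tnf* (1391384_at) kept its limma calls against autologous in all of them. With the threshold rounded to 0.263, as the methods print it, the criterion called 964 probe sets for 5% IH against control and 4 cytokine genes for 5% against 10% IH, with *Il6* added. *Il6* for 5% against 10% IH was also called, at 0.27, with median centring. *Il6* for 10% IH against autologous was not called with median centring, at 0.25.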
